A study of Mus musculus with 9 samples.

Results

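Ace, Pglyrp1, Gngt2, Adgre4, Adgre5 and Adgre1 encode an enzyme, a secreted protein, a G protein subunit and surface receptors. They are grouped here as markers of nonclassical monocytes, though Adgre5 did not pass the test against classical monocytes under any setting used below. These 6 genes, of 55487 gene IDs in each table, were found by matching their symbols to the IDs. RNA was sequenced from monocytes sorted from C57BL/6 spleens in 3 groups of 3 libraries. KO Ly6Clo libraries came from Ly6Clo monocytes of mice homozygous for loss of the +37 element of Cebpa (Cebpa +37-/-), an enhancer of the gene for the transcription factor C/EBP-alpha. WT Ly6Clo libraries came from the same subset of wild-type (WT) mice, and WT Ly6Chi libraries from their Ly6Chi monocytes. No group was treated, every library was made from 40000 to 50000 sorted cells, and the sources used here give no ages. The labels name no Cre and no cell type to which the deletion is restricted. The labels do not state whether the replicates are different mice. The p-values speak only of the spread among these 9 libraries, part of which could be technical.

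Ly6Chi (classical) monocytes leave the bone marrow and enter inflamed tissue, and a part of them turns into Ly6Clo (nonclassical) monocytes, which patrol the walls of blood vessels and depend on the nuclear receptor NR4A1. Ace encodes angiotensin-converting enzyme, a membrane-bound peptidase that makes angiotensin II and breaks down bradykinin. Pglyrp1 encodes a peptidoglycan recognition protein, a bactericidal protein best known from neutrophil granules. Gngt2 encodes a gamma subunit of heterotrimeric G proteins, first known from cone photoreceptors. Adgre1 (the F4/80 antigen of mouse macrophages), Adgre4 and Adgre5 (CD97) encode adhesion G protein-coupled receptors with EGF-like repeats outside the cell.

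The libraries held 48141590 to 173703361 counts. Levels are CPM (counts scaled to a common library total) on library sizes scaled by the TMM method, and 3 counts equal 0.0173 to 0.0623 CPM. The targeted gene Cebpa was at 4.04, 2.89 and 2.74 CPM in KO Ly6Clo libraries 1 to 3 and at 18.2, 17.7 and 19.2 CPM in WT Ly6Clo (log2 fold change -2.51, adjusted p = 0.015). That call was lost on leaving out any WT Ly6Clo library, KO Ly6Clo replicate 2 or 3, or WT Ly6Chi replicate 3 (adjusted p = 0.055 to 0.079). The summed level of 10 other nonclassical monocyte genes was 7897.9 to 13843.3 CPM in KO Ly6Clo, 10277.4 to 19329.3 in WT Ly6Clo and 1201.6 to 5305.9 in WT Ly6Chi. That of 9 classical genes was 127.4 to 214.0 CPM in KO Ly6Clo and 152.5 to 167.2 in WT Ly6Clo. In WT Ly6Chi it was 8594.7 to 11337.0 CPM. Both lists were chosen with earlier results of these data known, and the classical one holds Ly6c2, a gene of the sorting antigen. These sums thus describe the groups and test nothing. Nr4a1 led the nonclassical sum, at 2457.5 to 11133.7 CPM in WT Ly6Clo. For WT Ly6Clo over WT Ly6Chi, edgeR called 7 of the 10 nonclassical genes, but not Nr4a1, Itgal or Cx3cr1 (adjusted p = 0.31, 0.14 and 0.48). In WT Ly6Chi, replicate 1 stood apart, with all 10 of those nonclassical genes and 5 of the 6 markers at their lowest of the group. WT Ly6Chi replicate 3 stood apart by its sex-linked genes, with 30.0 CPM of Xist and 0 of Ddx3y, against at most 0.0417 and 69.4 to 142.1 CPM in the other 8 libraries. Its cells were thus female and those of the other 8 libraries male, so it came from a different mouse or mice. The labels used here give no sex. The part of sex in the comparisons with WT Ly6Chi was not tested. The summed neutrophil markers (11 genes) were 2.64 to 34.5 CPM in KO Ly6Clo, 6.11 to 8.86 in WT Ly6Clo, where Ngp was at 0, and 342.7 to 831.0 in WT Ly6Chi. Summed erythroid markers (7 genes) ran from 1.78 to 7574.3 CPM in KO Ly6Clo, 405.2 to 3355.2 in WT Ly6Clo and 134.2 to 228.7 in WT Ly6Chi, and summed NK cell markers (5 genes) were 8.24 to 240.9, 40.2 to 181.3 and 11.3 to 43.9 CPM in the same order of groups. Markers of conventional dendritic cells (6 genes) summed to 155.1 to 395.3, 82.7 to 193.9 and 132.8 to 280.2 CPM. Most of the KO Ly6Clo sum was Dpp4, with a mean of 232.7 CPM against 60.6 in WT Ly6Clo. Cd209a was lower in KO Ly6Clo (1.6 against 34.5 CPM), and of the 6 genes 4 had a positive and 2 a negative log2 fold change. Markers of T cells (7 genes) summed to 27.3 to 146.6, 57.5 to 150.9 and 88.4 to 141.1 CPM. Those of B cells (5 genes) summed to 141.2 to 549.8, 488.1 to 702.0 and 402.6 to 610.6 CPM. Those of eosinophils reached at most 10.8 CPM and those of platelets at most 27.1 CPM. The part of these markers in the results below was not tested. The library numbers fall into a lower and a higher run (5 and 4 libraries) that both hold all 3 groups.

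The promoter sequences are shown as a description, with motifs of PU.1, C/EBP and NR4A factors, which are central regulators of monocytes. Whether these motifs bear on the levels below was not tested. RefSeq's promoter table for GRCm38.p6 held 3 of the 6 genes: Pglyrp1, Ace with a pair of start sites, and Adgre4. Each window is the 250 bases before the annotated start on the plus strand, and capitals mark matches to a motif on either strand:
Pglyrp1 chr7:18884440-18884689: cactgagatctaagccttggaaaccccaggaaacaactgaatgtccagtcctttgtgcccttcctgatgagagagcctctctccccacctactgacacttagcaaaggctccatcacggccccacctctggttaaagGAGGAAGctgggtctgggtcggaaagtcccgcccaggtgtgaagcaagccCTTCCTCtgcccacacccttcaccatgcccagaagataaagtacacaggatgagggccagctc
Ace chr11:105967698-105967947: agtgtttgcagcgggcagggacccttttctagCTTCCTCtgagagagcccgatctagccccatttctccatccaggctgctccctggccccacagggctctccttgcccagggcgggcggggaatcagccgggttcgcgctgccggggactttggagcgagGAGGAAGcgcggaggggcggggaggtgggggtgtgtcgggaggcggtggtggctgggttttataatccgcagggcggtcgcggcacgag
Ace chr11:105974939-105975188: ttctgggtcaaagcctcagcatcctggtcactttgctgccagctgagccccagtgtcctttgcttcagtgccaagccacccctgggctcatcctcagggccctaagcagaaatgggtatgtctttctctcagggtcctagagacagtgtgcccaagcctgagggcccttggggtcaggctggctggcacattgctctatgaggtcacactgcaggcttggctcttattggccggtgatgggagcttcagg
Adgre4 chr17:55749734-55749983: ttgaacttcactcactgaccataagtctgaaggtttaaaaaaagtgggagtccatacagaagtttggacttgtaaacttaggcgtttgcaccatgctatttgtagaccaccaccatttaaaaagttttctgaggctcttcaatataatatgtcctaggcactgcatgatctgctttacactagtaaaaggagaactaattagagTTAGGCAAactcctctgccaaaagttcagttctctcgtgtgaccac
GAGGAAG, a core that PU.1 binds, was matched at bases -113 to -107 and, on the reverse strand, -63 to -57 before the Pglyrp1 start. In the first Ace window it was matched at -89 to -83 and, on the reverse strand, at -218 to -212. Of 32851 promoter windows of the same length in the table, 10.6% held this motif. TTGCNNAA, a C/EBP pattern, was matched on the reverse strand at -46 to -39 before the Adgre4 start, and 9.56% of all windows held it. AAGGTCA, a core that NR4A factors bind, was in none of these windows and in 4.08% of all. No match overlapped another. The Pglyrp1 window and the second Ace window lie within the gene spans given by the tables, before RefSeq starts inside them, and the counts do not separate transcripts of the start sites.

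On a per-length scale all 6 genes were well expressed in Ly6Clo monocytes. TPM (transcript levels scaled for gene length), as deposited, averaged 1599.6 ± 164.3 for Adgre4 in KO Ly6Clo, 1886.1 ± 163.0 in WT Ly6Clo and 489.0 ± 230.1 in WT Ly6Chi (SD, n = 3 here and below). Gngt2 averaged 1457.8 ± 580.6, 1574.7 ± 425.3 and 612.0 ± 75.1 TPM in KO Ly6Clo, WT Ly6Clo and WT Ly6Chi, and Adgre5 averaged 1383.4 ± 278.7, 1479.9 ± 162.2 and 1077.3 ± 273.4 TPM. In WT Ly6Clo, Gngt2 (1164.8 to 2013.8 TPM) overlapped both of the others, while every Adgre4 library (1704.3 to 2019.3 TPM) lay above every Adgre5 library (1304.7 to 1624.7 TPM). In KO Ly6Clo all 3 genes overlapped. Ace followed at 901.4 ± 156.3 TPM in KO Ly6Clo, 1181.3 ± 129.7 in WT Ly6Clo and 314.3 ± 222.2 in WT Ly6Chi. Its highest WT Ly6Clo library (1295.2 TPM) lay just under the lowest of Adgre5 (1304.7 TPM). Pglyrp1 averaged 652.1 ± 201.8, 631.7 ± 97.5 and 143.7 ± 44.7 TPM in KO Ly6Clo, WT Ly6Clo and WT Ly6Chi, and Adgre1 463.7 ± 36.4, 422.5 ± 24.2 and 249.6 ± 26.9 TPM. Ace, Pglyrp1 and Adgre1 did not overlap each other in WT Ly6Clo. In KO Ly6Clo, Pglyrp1 (479.0 to 873.8 TPM) overlapped both Ace (761.5 to 1070.1 TPM) and Adgre1 (424.0 to 495.6 TPM).

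**Figure D1:**
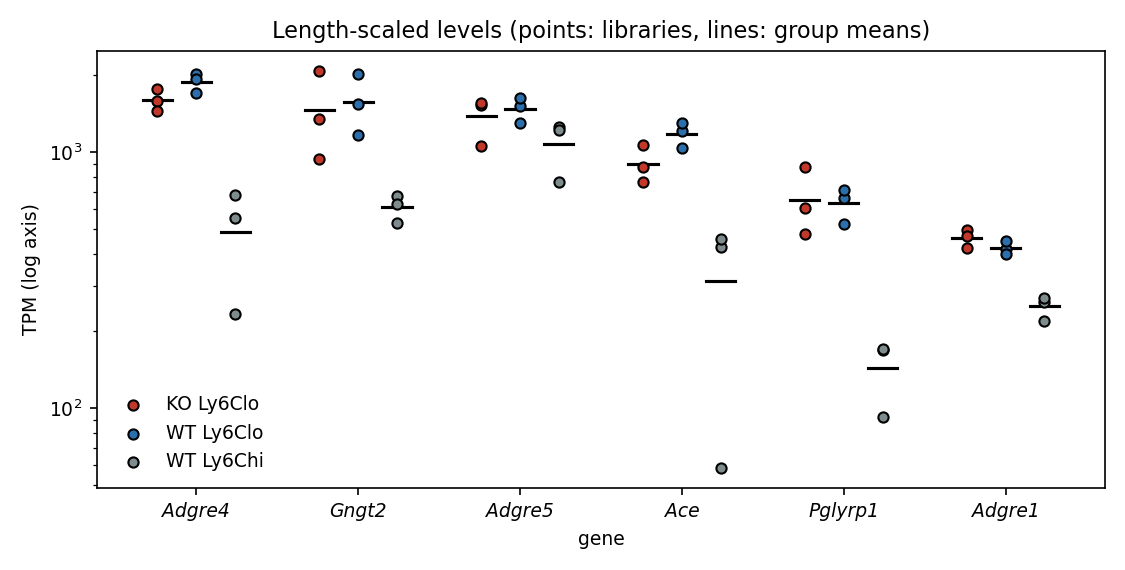
TPM of the 6 genes on a log axis, with a point for each library and a line at the mean of each group (KO Ly6Clo, WT Ly6Clo, WT Ly6Chi). Adgre4, Gngt2 and Adgre5 overlap in KO Ly6Clo, Adgre4 lies above Adgre5 in WT Ly6Clo with Gngt2 overlapping both, and Adgre5 leads alone in WT Ly6Chi (762.0 to 1249.4 TPM).

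The order differed in Ly6Chi monocytes, where Adgre5 led. There it exceeded Gngt2 (529.8 to 677.0 TPM) and Adgre4 (234.1 to 681.3 TPM), which overlapped each other. Within single libraries the TPM ratio of Adgre4 to Adgre5 was 1.67, 1.04 and 0.926 in KO Ly6Clo and 1.34, 1.48 and 1.05 in WT Ly6Clo, against 0.307, 0.441 and 0.558 in WT Ly6Chi. Adgre4 thus exceeded Adgre5 in 5 of 6 Ly6Clo libraries and in no Ly6Chi library. Adgre5 shares 895 of its 3757 exon bases with Ddx39 on the opposite strand. How reads there were counted is not stated, so the place of Adgre5 in the order of these genes could be affected. By TPM Adgre4 ranked 57 to 77 among all gene IDs in KO Ly6Clo, 44 to 56 in WT Ly6Clo and 189 to 666 in WT Ly6Chi. Ace ranked 117 to 174 in KO Ly6Clo, 88 to 119 in WT Ly6Clo and 296 to 2846 in WT Ly6Chi. The 6 genes together took 0.607 to 0.705% of TPM in KO Ly6Clo, 0.658 to 0.766% in WT Ly6Clo and 0.194 to 0.343% in WT Ly6Chi, with no overlap between either Ly6Clo group and WT Ly6Chi. Their summed CPM was 6075.2 to 6565.0 in KO Ly6Clo, 7643.5 to 7901.9 in WT Ly6Clo and 1935.2 to 3873.4 in WT Ly6Chi. KO and WT Ly6Clo overlapped in the TPM share and not in summed CPM, and neither sum was tested.

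Between the wild-type subsets, Ly6Clo monocytes were compared with Ly6Chi monocytes. Pglyrp1, Adgre4, Gngt2 and Adgre1 were higher in the Ly6Clo subset, by 4.32-fold, 3.82-fold, 2.53-fold and 1.69-fold. Ace was 3.71-fold higher on average and Adgre5 1.35-fold, and neither passed the test. All 6 genes had every WT Ly6Clo library above every WT Ly6Chi library, where 13.6% of the 18341 genes tested did. The 4 called genes (edgeR, adjusted p under 0.05) compare with 1.88% of genes tested that were called higher. The median log2 fold change of the 6 genes was 1.61, against 0.0 over all genes tested. In bulk RNA, fewer cells with a transcript and less of it per cell cannot be told apart.

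**Figure D2:**
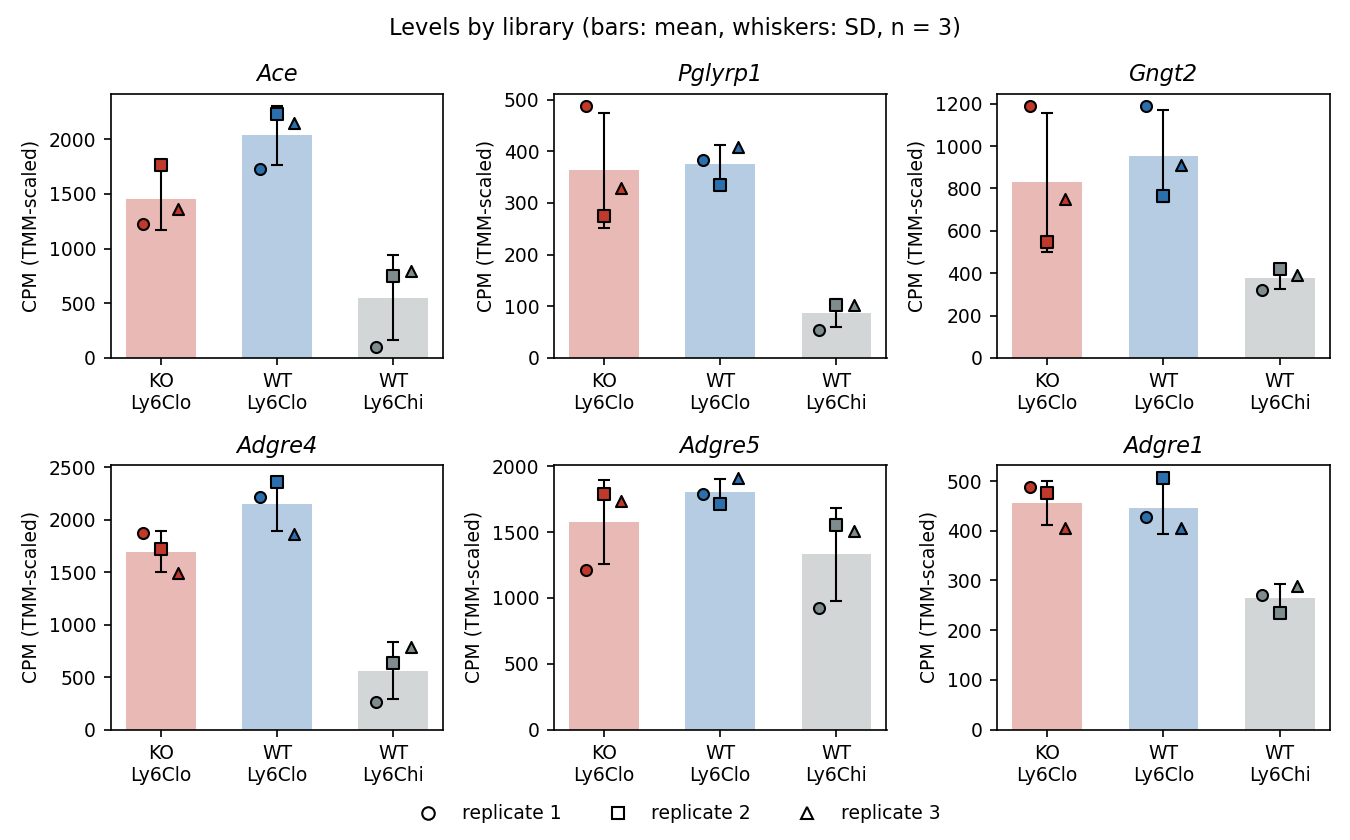
CPM on TMM-scaled library sizes of each gene in KO Ly6Clo, WT Ly6Clo and WT Ly6Chi, with bars at the mean, whiskers of 1 SD (n = 3) and a symbol for each library. Every WT Ly6Clo library is above every WT Ly6Chi library in all 6 panels, and KO and WT Ly6Clo libraries overlap in each.

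Ace, the peptidase, was at 1729.8, 2229.8 and 2144.7 CPM in WT Ly6Clo libraries 1 to 3, against 99.6, 748.0 and 797.3 CPM in WT Ly6Chi. The groups did not overlap, and WT Ly6Chi replicate 1 was far below its group, at 4.9% of the WT Ly6Clo mean, where the other 2 were at 36.8% and 39.2%. The means were 2034.8 ± 267.5 and 548.3 ± 389.3 CPM. The log2 fold change of 1.89 (SE 0.60, 95% interval 0.53 to 3.26) had an adjusted p of 0.14. Without WT Ly6Chi replicate 1 it was 1.41 with an adjusted p of 0.018, which passes the threshold, and without replicate 3 it was 2.28 (adjusted p = 0.18). In mean CPM, WT Ly6Clo exceeded WT Ly6Chi 19.9-fold among the 3 libraries with the lower library numbers and 2.78-fold among the 3 with the higher ones. The lower run held only replicate 1 of WT Ly6Chi, and the higher run only replicate 3 of WT Ly6Clo. Each ratio thus rests on a single library of 1 group. DESeq2 also called Ace higher (adjusted p = 0.013).

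Pglyrp1, the secreted peptidoglycan-binding protein, had the largest fitted fold of the 6. It was at 382.1, 335.2 and 409.1 CPM in WT Ly6Clo and at 54.6, 102.6 and 103.3 CPM in WT Ly6Chi, with means of 375.4 ± 37.4 and 86.8 ± 27.9. Its WT Ly6Clo libraries lay close together and far above all of WT Ly6Chi. Its log2 fold change was 2.11 (SE 0.30, 95% interval 1.44 to 2.79, adjusted p = 0.0076). Pglyrp1 stayed called under all 17 alternatives, including each library left out (adjusted p 2.71e-09 to 0.0325). Pglyrp1 is a granule gene of neutrophils, whose summed markers were at 6.11 to 8.86 CPM in WT Ly6Clo and 342.7 to 831.0 in WT Ly6Chi. Of those 11 markers, 9 had a negative log2 fold change for WT Ly6Clo over WT Ly6Chi and 2 a positive one. Cxcr2, at 2.06, was among the positive. The part of neutrophils in the Pglyrp1 levels was not tested.

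Gngt2, the G protein gamma subunit, was at 1189.0, 762.9 and 908.5 CPM in WT Ly6Clo and at 321.2, 421.1 and 389.3 CPM in WT Ly6Chi. The means were 953.5 ± 216.6 and 377.2 ± 51.1 CPM, with the wider spread in WT Ly6Clo. Gngt2 had a log2 fold change of 1.34 (SE 0.29, 95% interval 0.68 to 1.99, adjusted p = 0.041). That call was lost without any single library of WT Ly6Clo (adjusted p = 0.13, 0.066 and 0.0995 for replicates 1 to 3) or of WT Ly6Chi (0.14, 0.10 and 0.11), and without KO Ly6Clo replicate 3 (0.060), and also with the library-number runs as a term (0.0757). The fold change stayed between 1.16 and 1.47 throughout. Gngt2 shares 234 of its 1877 exon bases with Abi3 on the opposite strand, which also rose (log2 fold change 1.42, adjusted p = 0.0045), and the sources used here do not say whether reads were counted by strand. Abi3 averaged 169.4 CPM in WT Ly6Clo and 63.5 in WT Ly6Chi, and its call was kept without each library.

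Among the adhesion receptors, Adgre4 differed most. It was at 2217.4, 2357.0 and 1863.5 CPM in WT Ly6Clo and at 264.0, 638.2 and 783.9 CPM in WT Ly6Chi, with means of 2146.0 ± 254.3 and 562.0 ± 268.2. As for Ace, replicate 1 was the lowest Ly6Chi library. The log2 fold change was 1.93 (SE 0.35, 95% interval 1.15 to 2.71, adjusted p = 0.020), 1.60 without WT Ly6Chi replicate 1 (adjusted p = 0.0079) and 2.27 without replicate 3 (0.032). It did not pass without WT Ly6Clo replicate 1, 2 or 3 (adjusted p = 0.068, 0.064 and 0.055) or without WT Ly6Chi replicate 2 (0.069). Mean CPM was 8.67-fold higher in WT Ly6Clo among libraries with lower library numbers and 2.62-fold higher among the others. Here too the lower run held only WT Ly6Chi replicate 1 and the higher run only WT Ly6Clo replicate 3.

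Adgre1, the F4/80 antigen, was at 426.8, 506.6 and 405.9 CPM in WT Ly6Clo and at 271.3, 235.2 and 288.3 CPM in WT Ly6Chi. It was the only one of the 6 whose lowest Ly6Chi library was not replicate 1. The means were 446.4 ± 53.1 and 264.9 ± 27.1 CPM, and the log2 fold change was 0.75 (SE 0.16, 95% interval 0.40 to 1.11, adjusted p = 0.035). Leaving out any library of WT Ly6Clo (adjusted p = 0.11, 0.13 and 0.080 for replicates 1 to 3) or of WT Ly6Chi (0.092, 0.14 and 0.079), or KO Ly6Clo replicate 2 (0.065) or 3 (0.057), ended the call. Without a filter on low counts (adjusted p = 0.0778) or with the library-number runs as a term (0.0603) it did not pass either. F4/80 also marks red pulp macrophages. Of 10 markers of those cells, 8 had a positive log2 fold change for WT Ly6Clo over WT Ly6Chi, with a median of 0.92, and none was called. Vcam1 was at 1.55, Slc40a1 at 1.72 and Spic at 1.04, while Cd163 and Axl were at -2.23 each. The sums of the 10 were 197.7 to 335.2 CPM in WT Ly6Clo and 200.5 to 338.3 CPM in WT Ly6Chi, where Axl averaged 21.6 and 101.6 CPM, and no marker was at 0 in all 3 libraries of a group. The part of these cells in the Adgre1 difference was not tested.

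Adgre5, or CD97, was the least different. It was at 1785.0, 1710.4 and 1911.8 CPM in WT Ly6Clo and at 924.6, 1555.7 and 1511.4 CPM in WT Ly6Chi, and the groups were apart by a narrow margin. The means were 1802.4 ± 101.8 and 1330.6 ± 352.3 CPM. The log2 fold change of 0.44 (SE 0.23, 95% interval -0.08 to 0.95, adjusted p = 0.35) did not pass the test, and it was 0.24 without WT Ly6Chi replicate 1. Adgre5 shares 895 of its 3757 exon bases with Ddx39 on the opposite strand, which averaged 151.5 CPM in WT Ly6Clo and 112.3 in WT Ly6Chi.

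**Figure D3:**
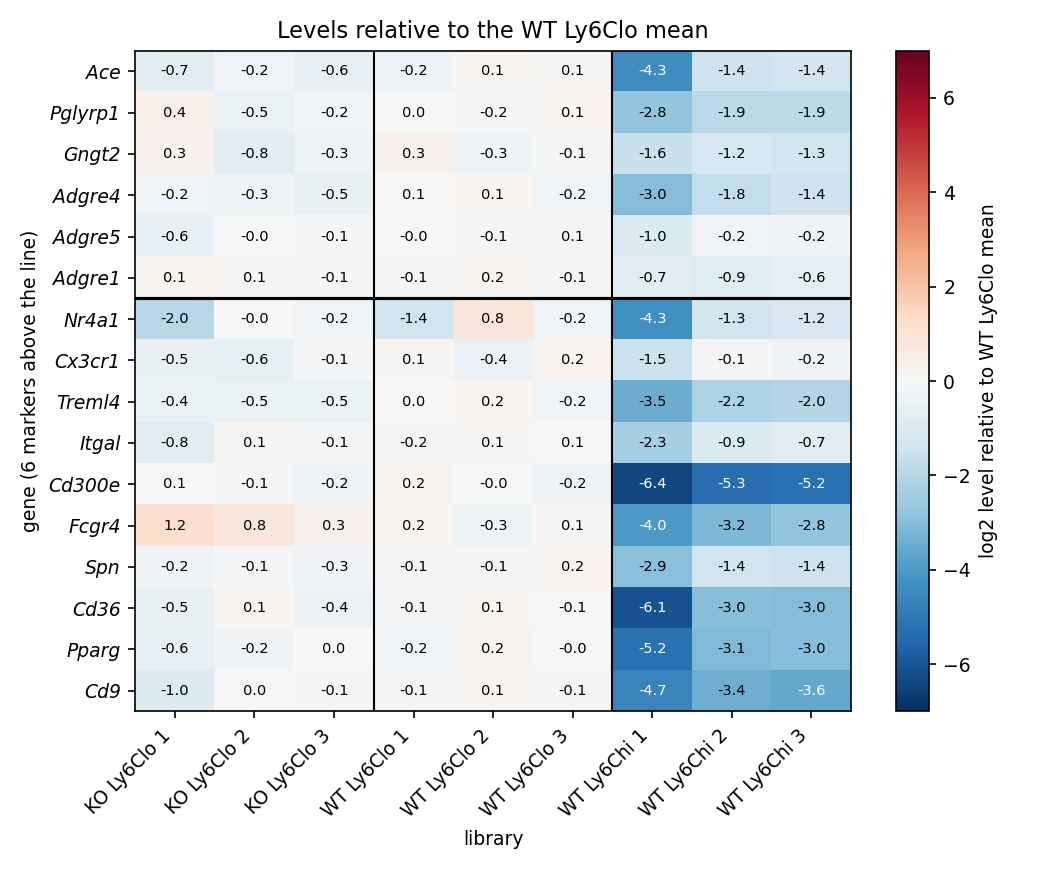
Log2 level of each gene in each library relative to its mean in WT Ly6Clo, for the 6 genes above the line and 10 other nonclassical monocyte genes below it. WT Ly6Chi replicate 1 is the lowest of the 9 libraries in every row but that of Adgre1, and Ace is at -4.34 there against -1.44 and -1.35 in replicates 2 and 3.

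The second comparison set KO Ly6Clo against WT Ly6Clo monocytes, that is, the loss of the Cebpa +37 element within the subset. None of the 6 genes passed the test: edgeR called 0, and DESeq2 and limma-voom called 0 as well. Of all 18341 genes tested, edgeR called 13 (0.0709%), DESeq2 277 and limma-voom 16. At an unadjusted p under 0.05, edgeR had 0 of the 6 and 1130 of all genes tested. With so few genes called, 0 of 6 says little about these genes. KO and WT libraries overlapped for all 6, where 10.9% of genes tested did not overlap. The median log2 fold change was -0.2, against 0.03 over all genes. The intervals left room for differences, widest for Ace, where the interval reached 0.284-fold. The spread in this fit is taken from all 9 libraries, WT Ly6Chi included. The SE of Ace was 0.59, but 0.18 in the fit of the 6 libraries compared and 0.18 without WT Ly6Chi replicate 1. For Adgre4 it was 0.33, 0.15 and 0.16 in the same order. Neither gene was called in those fits.

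Ace was at 1222.4, 1760.7 and 1365.0 CPM in KO Ly6Clo libraries, with a mean of 1449.4 ± 278.9, against 2034.8 ± 267.5 in WT Ly6Clo. Only KO replicate 2 lay above the lowest WT library. The log2 fold change was -0.49 (SE 0.59, 95% interval -1.81 to 0.84, adjusted p = 1.0). Same-numbered KO and WT Ly6Clo libraries are also given as pairs, though the labels do not say what a number marks. Over all genes, KO replicates 1 and 2 deviated most like the WT Ly6Clo library of their number. KO replicate 3 deviated most like WT replicate 2, so the third pair goes by number only. Ace in KO was at 70.7%, 79.0% and 63.6% of its WT pair. Lower in all 3 pairs were 15.0% of all genes tested.

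Adgre4 was at 1877.9, 1719.8 and 1492.0 CPM in KO Ly6Clo, a mean of 1696.5 ± 194.0 against 2146.0 ± 254.3 in WT Ly6Clo, with KO replicate 1 reaching into the WT range. Each KO library was at 84.7%, 73.0% and 80.1% of its pair, and the log2 fold change was -0.34 (95% interval -1.09 to 0.42). Gngt2 was at 1187.7, 547.7 and 750.7 CPM in KO Ly6Clo, a mean of 828.7 ± 327.1 against 953.5 ± 216.6 in WT Ly6Clo. Replicate 1 had the highest level and replicate 2 the lowest in both genotypes, and the pairs were at 99.9%, 71.8% and 82.6%. For Gngt2 the fold change was -0.2 on the log2 scale (95% interval -0.85 to 0.44).

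Adgre5 was at 1211.5, 1787.9 and 1733.2 CPM in KO Ly6Clo, a mean of 1577.5 ± 318.2 against 1802.4 ± 101.8 in WT Ly6Clo. KO replicate 1 alone was low, at 67.9% of its pair, while the others were at 104.5% and 90.7% (log2 fold change -0.19, 95% interval -0.70 to 0.32). Pglyrp1 was at 487.4, 273.8 and 328.0 CPM in KO Ly6Clo, a mean of 363.1 ± 111.0 against 375.4 ± 37.4 in WT Ly6Clo, at 127.6%, 81.7% and 80.2% of the pairs. Its KO libraries spanned the whole WT range. Adgre1 was at 487.3, 475.2 and 406.3 CPM in KO Ly6Clo, a mean of 456.2 ± 43.7 against 446.4 ± 53.1 in WT Ly6Clo, at 114.2%, 93.8% and 100.1% of the pairs. All 10 red pulp macrophage markers had a negative log2 fold change between the genotypes (median -0.77), and none was called. Their sums were 145.0 to 280.0 CPM in KO Ly6Clo and 197.7 to 335.2 in WT Ly6Clo. The part of these cells in the Adgre1 levels was not tested. The interval of Adgre1 was the narrowest (-0.32 to 0.38 on the log2 scale), and that of Pglyrp1 was -0.70 to 0.60. The fitted directions of Adgre1, Pglyrp1 and Gngt2 turned on leaving out single libraries.

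**Figure D4:**
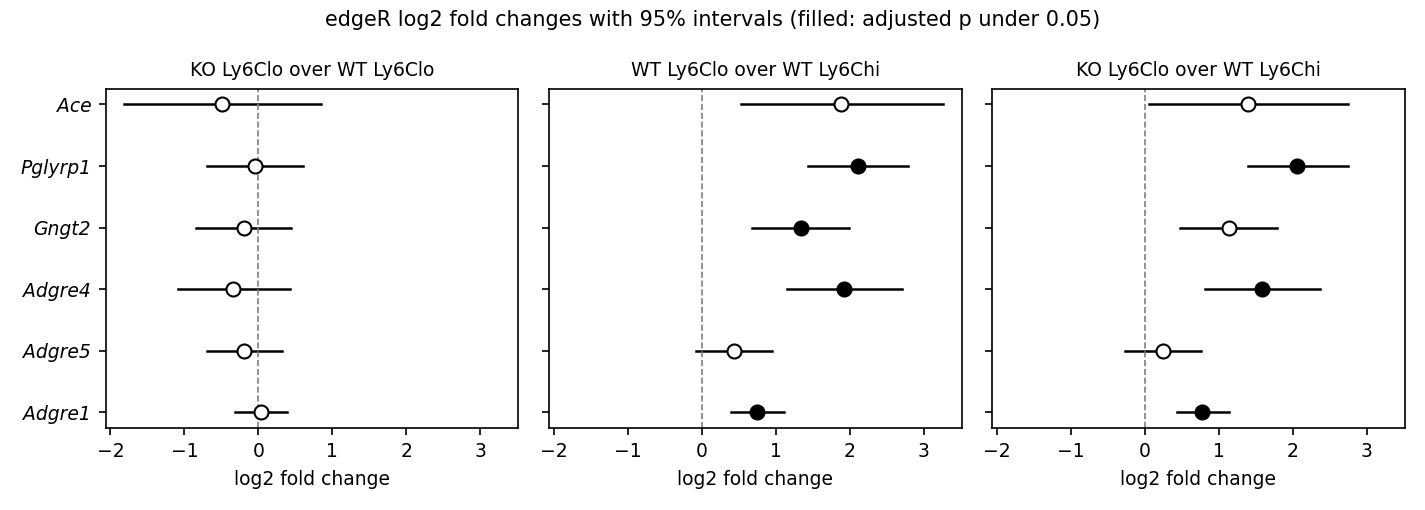
EdgeR log2 fold changes with 95% intervals for KO Ly6Clo over WT Ly6Clo, WT Ly6Clo over WT Ly6Chi and KO Ly6Clo over WT Ly6Chi, filled where the adjusted p was under 0.05. All 6 intervals of the first panel include 0, with 4 genes filled in the second panel and 3 in the third.

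The third comparison set KO Ly6Clo against WT Ly6Chi monocytes and shares its groups with the other comparisons. Pglyrp1, Adgre1 and Adgre4 were higher in KO Ly6Clo, where 2.06% of genes tested were called higher. KO libraries lay above every WT Ly6Chi library for all but Adgre5 (11.3% of genes tested did so). The median log2 fold change was 1.27, against 0.04 over all genes. Pglyrp1 averaged 363.1 ± 111.0 CPM in KO Ly6Clo and 86.8 ± 27.9 in WT Ly6Chi, with a log2 fold change of 2.06 (SE 0.30, adjusted p = 0.0067), and stayed called under all 17 alternatives. Adgre1 averaged 456.2 ± 43.7 against 264.9 ± 27.1 CPM (log2 fold change 0.78, SE 0.16, adjusted p = 0.026), and Adgre4 1696.5 ± 194.0 against 562.0 ± 268.2 CPM (1.59, SE 0.34, adjusted p = 0.034).

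Of the 9 libraries, only WT Ly6Clo replicate 2 or 3 could be left out with the Adgre1 call kept. It was lost without KO Ly6Clo replicate 1, 2 or 3 (adjusted p = 0.065, 0.11 and 0.057), WT Ly6Clo replicate 1 (0.064) or WT Ly6Chi replicate 1, 2 or 3 (0.075, 0.12 and 0.064), and also without a filter on low counts (0.0724) or in a fit of the 6 libraries compared (0.064). The Adgre4 call held without WT Ly6Chi replicate 1 (log2 fold change 1.25, adjusted p = 0.015) or 3 (1.92, 0.042). It was lost without KO Ly6Clo replicate 1, 2 or 3 (adjusted p = 0.067, 0.090 and 0.076), WT Ly6Clo replicate 1, 2 or 3 (0.061, 0.0502 and 0.063) or WT Ly6Chi replicate 2 (0.10), in a fit of the 6 libraries (0.0791) and with the library-number runs as a term (0.0546). Gngt2 did not pass (log2 fold change 1.14, 95% interval 0.48 to 1.79, adjusted p = 0.065) and did so without KO Ly6Clo replicate 2 (1.35, adjusted p = 0.037), without a filter on low counts (0.0331) and by DESeq2 (0.00498). Ace had a log2 fold change of 1.4 (95% interval 0.06 to 2.75, adjusted p = 0.27), and 0.91 without WT Ly6Chi replicate 1 (adjusted p = 0.069). Adgre5 was at 0.25 (95% interval -0.27 to 0.76).

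The partners and relatives of these proteins did not share 1 direction. For their counts, edgeR called 3.51% of all genes tested in either direction for WT Ly6Clo over WT Ly6Chi and 4.52% for KO Ly6Clo over WT Ly6Chi. Of 27 other adhesion receptor genes 16 could be tested. Adgrv1, a very large receptor known from the inner ear and retina, was called between the WT subsets, at 5.85, 5.81 and 9.05 CPM in WT Ly6Clo against 0.304, 0.939 and 0.837 CPM in WT Ly6Chi (log2 fold change 3.31, adjusted p = 0.018). Leaving out WT Ly6Clo replicate 1 (0.051) or 3 (0.069) or WT Ly6Chi replicate 2 (0.056) or 3 (0.061) ended that call. Its KO Ly6Clo libraries were at 1.65, 1.24 and 2.77 CPM, between those groups. None of the 16 was called between the genotypes or for KO Ly6Clo over WT Ly6Chi. The highest of them in mean CPM were Adgrg5, at 6.04, 21.8 and 9.25 CPM in KO Ly6Clo against 0.0183, 16.6 and 6.61 in WT Ly6Clo, and Celsr3, a planar cell polarity cadherin, at 11.4, 3.3 and 7.02 against 12.6, 7.01 and 15.0. The medians of the list were 0.71, -0.68 and -0.24 on the log2 scale for KO over WT Ly6Clo, WT Ly6Clo over WT Ly6Chi and KO Ly6Clo over WT Ly6Chi.

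In humans CD97 binds CD55, Thy-1 and integrins, and 6 of 7 genes of that list were tested. Itgb1, the integrin beta 1 chain, was higher in WT Ly6Clo (1257.8, 1221.3 and 1135.4 CPM) than in WT Ly6Chi (487.9, 553.3 and 672.7 CPM), with a log2 fold change of 1.08 (adjusted p = 0.013; lost without WT Ly6Clo replicate 1 at 0.061 or WT Ly6Chi replicate 2 at 0.063). It was also higher in KO Ly6Clo than in WT Ly6Chi (1.03, adjusted p = 0.012; lost without WT Ly6Chi replicate 2 at 0.065). Itga5, its alpha 5 partner, was lower in WT Ly6Clo (68.4, 88.9 and 59.8 CPM) than in WT Ly6Chi (124.2, 151.2 and 159.9 CPM), by a log2 fold change of -1.0 (adjusted p = 0.026). Without WT Ly6Clo replicate 1 (0.12) or 3 (0.11), or WT Ly6Chi replicate 2 or 3 (0.10 each), it did not pass. In KO Ly6Clo, at 46.9, 53.5 and 43.8 CPM, Itga5 was lower than in WT Ly6Chi by -1.59 (adjusted p = 0.0028), a call kept without each library. Between the genotypes 0 of 6 were called, with 2 positive and 4 negative log2 fold changes. Itgb1 was at -0.05 and Itgav, the integrin alpha V chain, at -0.04 on the log2 scale. Itga5 was at -0.59 (edgeR adjusted p = 0.62), with every KO Ly6Clo library below every WT Ly6Clo library, where 10.9% of genes tested did not overlap.

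Of 17 other genes of the angiotensin and kinin pathway 7 could be tested, and 0 were called in each comparison. The highest in mean CPM were Ctsa, cathepsin A, at 1324.6 ± 73.3 CPM in KO Ly6Clo, 1572.3 ± 176.6 in WT Ly6Clo and 1304.6 ± 164.3 in WT Ly6Chi, and Atp6ap2, the prorenin receptor, at 119.0 ± 21.3, 140.5 ± 19.5 and 161.4 ± 35.7 CPM in those groups. Named after their values were seen, the receptor genes Agtr1b and Agtr2 were at 0 in all 3 WT Ly6Clo libraries. Between the groups the medians of the list were -0.16, 0.27 and 0.04 in the order of comparisons given above.

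Peptidoglycan sensing and digestion genes (10 of 12 tested) were led by lysozyme. Lyz2 was at 16990.3, 15157.9 and 14356.9 CPM in WT Ly6Clo against 42097.9, 37094.3 and 38042.2 CPM in WT Ly6Chi (log2 fold change -1.33, adjusted p = 0.0052), the opposite direction to Pglyrp1. In KO Ly6Clo it was at 11057.3, 7456.9 and 11530.2 CPM, lower than in WT Ly6Chi by -1.96 (adjusted p = 0.00063), and both Lyz2 calls were kept without each library. Lyz1, a near-identical copy whose reads may be shared, was lower by -1.49 in WT Ly6Clo (adjusted p = 0.016; lost without WT Ly6Clo replicate 1 or 2 at 0.065 or 3 at 0.070) and by -2.05 in KO Ly6Clo (adjusted p = 0.0032). The other 8 tested were not called, and 0 of 10 were called between the genotypes, where Lyz2 was at -0.63 (adjusted p = 0.46) and Tyrobp, the adaptor of TREM1, at -0.23. The medians were -0.48, 0.12 and -0.24.

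Of 32 other G protein subunit genes 21 were tested. Gng2, another gamma subunit, was at 12.7, 18.3 and 23.0 CPM in WT Ly6Clo against 95.3, 76.3 and 61.8 CPM in WT Ly6Chi (log2 fold change -2.11, adjusted p = 0.0085), the opposite direction to Gngt2. KO Ly6Clo, at 17.4, 25.9 and 15.3 CPM, was lower than WT Ly6Chi by -1.99 (adjusted p = 0.0082), and both calls were kept without each library. Gng12 was at 17.6, 29.2 and 16.5 CPM in KO Ly6Clo against 57.9, 47.3 and 70.8 CPM in WT Ly6Chi (log2 fold change -1.48, adjusted p = 0.025). That call was lost without KO Ly6Clo replicate 1 (0.066) or 3 (0.11) or WT Ly6Chi replicate 1 (0.075), 2 (0.053) or 3 (0.094). Between the genotypes 0 of 21 were called, with 11 positive and 10 negative log2 fold changes. Gnai2 and Gnb1, the highest in mean CPM, were at -0.04 and 0.05 on the log2 scale. Gng12 was at -1.07 (edgeR adjusted p = 0.46), with every KO Ly6Clo library below every WT Ly6Clo library (38.8, 57.0 and 37.2 CPM). Of all genes tested, 10.9% did not overlap between the genotypes. The medians were 0.05, -0.37 and -0.11.

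**Figure D5:**
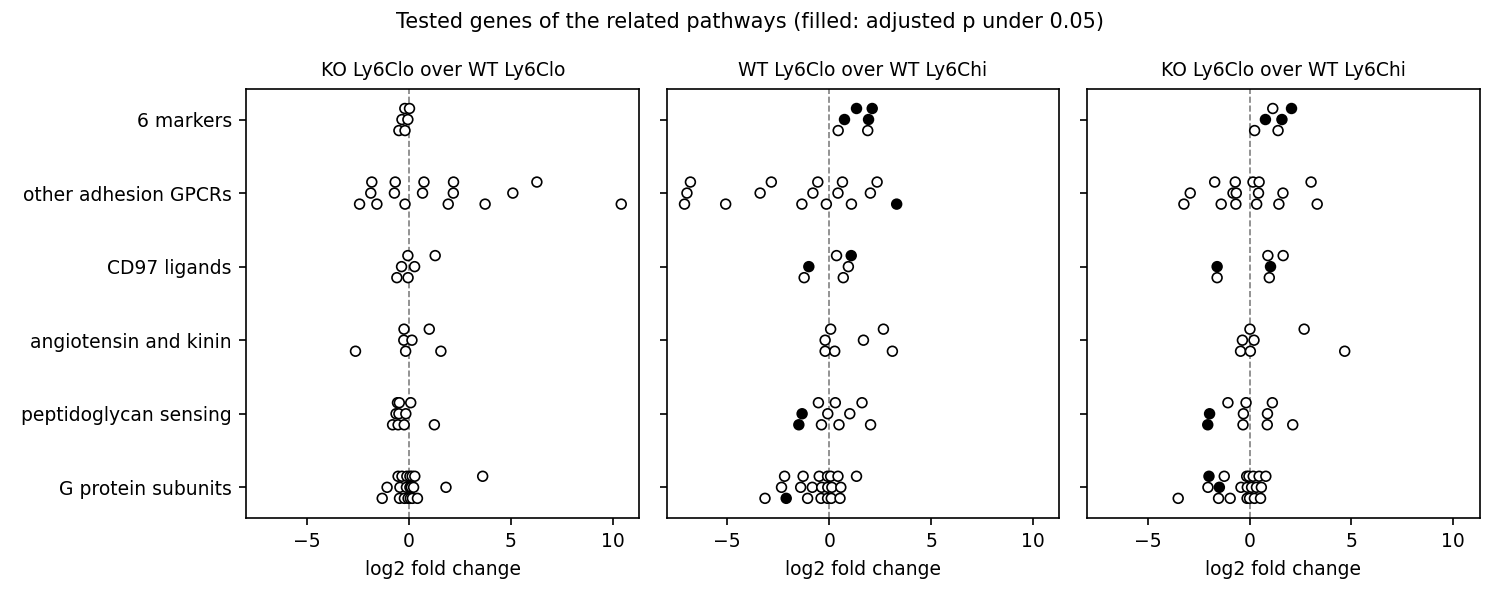
EdgeR log2 fold changes of the tested genes of the marker set and 5 related lists in the 3 comparisons, filled where the adjusted p was under 0.05. No gene is filled for KO over WT Ly6Clo. Folds far from 0 belong to genes with libraries at or near 0, whose fitted value depends on the prior count.

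Genes with the most similar profiles over the 9 libraries were ranked by the root mean square difference of centred log2(CPM + 1) values among 8995 protein-coding genes of at least 5 CPM. For Adgre4 they were Rbpms (0.15), Cpd (0.19) and Spn (0.21), the last being CD43, a marker of nonclassical monocytes. Those for Pglyrp1 were Stap1 (0.17), Fyn (0.21) and Smpdl3b (0.23), and those for Gngt2 were Chmp2b (0.14), Tmem140 (0.22) and Rras (0.23). Ace had no profile as close, with Heg1 (0.32), Nrarp (0.36) and Grk3 (0.38) nearest. Adgre1 was nearest to Rab10 (0.07), Ddx1 (0.08) and Rab3gap2 (0.10), and Adgre5 to Mbp (0.07) and Bop1 (0.10). These small distances go with the small range of Adgre1 and Adgre5 over the libraries. Among the 6 genes themselves the closest pair was Adgre4 and Pglyrp1 (0.31), and the farthest was Ace and Adgre1 (1.07). The 9 libraries share their groups, so this likeness is a description.

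The genes lie on 4 chromosomes of GRCm38. Pglyrp1 (ENSMUSG00000030413) is at chr7:18871331-18890459, Adgre5 (ENSMUSG00000002885) at chr8:83723251-83741326 and Gngt2 (ENSMUSG00000038811) at chr11:95837216-95845734. Ace (ENSMUSG00000020681) is at chr11:105967945-105989964, and Adgre4 (ENSMUSG00000032915) and Adgre1 (ENSMUSG00000004730) are at chr17:55749984-55853662 and chr17:57358691-57483527. Of these only Adgre5 is on the minus strand. Cyb561, which lies 14609 bases before Ace on the opposite strand and encodes a cytochrome b561, was at 38.7, 44.9 and 30.2 CPM in WT Ly6Clo against 3.4, 6.11 and 4.86 CPM in WT Ly6Chi (log2 fold change 2.99, adjusted p = 0.0022). It was at 52.4, 52.5 and 32.3 CPM in KO Ly6Clo (3.26 over WT Ly6Chi, adjusted p = 0.00099), and both calls were kept without each library. Dcaf7, on the other side of Ace, was not called (0.18, adjusted p = 0.80). Vav1, before Adgre1, and Pot1b, before Adgre4, were not called between the WT subsets either (adjusted p = 0.50 and 0.16). Apart from Abi3 and Cyb561, no tested gene that overlaps or adjoins the 6 was called in any of the 3 comparisons. Gm11651, an antisense gene that shares 295 of the 5287 exon bases of Ace, reached at most 1.33 CPM.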

How the data were processed

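Monocytes were sorted from spleens, and RNA (10 ng) was amplified by 12 to 15 cycles of PCR (SMARTer Ultra Low) for paired 150-base sequencing, per the labels' protocols. The deposited counts, whole numbers with no normalization, are described as such per the file headers. The authors deposited CPM, FPKM and TPM beside them, which equal values recomputed from counts and gene lengths. TPM as deposited was used for levels between genes, and the deposited CPM and FPKM were used in no test. Named in the submitters' processing notes are Salmon 0.8.2, featureCounts 1.4.6-p5 (Subread), STAR 2.5.1a, bcl2fastq, limma, edgeR and GRCm38 (mm10). Strand and the treatment of reads of several genes are not given in the sources used here. GENCODE M21 gave a symbol to 99.53% of IDs.

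The test was that of edgeR 4.0.16 in R 4.3.3: filterByExpr (minimum count 10, 18341 genes kept, all 6 markers among them), TMM, 1 term per group over all 9 libraries, the quasi-likelihood test and Benjamini-Hochberg adjustment over all genes tested. A gene was called at an adjusted p under 0.05. Alternatives were RLE scaling, no filter, 1 CPM in 3 libraries, DESeq2 1.42.0, limma-voom (limma 3.58.1), the 6 libraries compared, a replicate block, library-number runs as a term, and each library left out. Deviations of same-numbered KO and WT Ly6Clo libraries from their group means correlated at 0.463, 0.351 and 0.121. KO replicate 3 was best matched by WT replicate 2, so its pair goes by number only. This is taken from the data, since the labels do not say what a number marks. Counting floors of 3 counts cover counting error only, as copies cannot be told from molecules. No pair of replicates looked like 1 library (chi-square per gene 51.4 to 528).

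The 6 genes, the pathway and marker lists and the tests were chosen with earlier results of these data known. In each pathway list, up to 4 called genes of the smallest adjusted p were named per comparison, or the 2 of the highest mean level where none was called. Alike genes were the nearest 3 per marker (results for some genes that these rules name are not reported here), and neighbours were genes overlapping or next to a marker with at least 1 CPM in a group.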

Additional observations from a re-analysis of the deposited data

How the results depend on the processing

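Of the 6 markers, 0 were called for KO over WT Ly6Clo under all 17 alternatives, the replicate block included. For WT Ly6Clo over WT Ly6Chi 4 were called as reported, 2 with library-number runs as a term (Gngt2 and Adgre1 dropped out), and 1 to 4 when a library was left out. For KO Ly6Clo over WT Ly6Chi 3 were called as reported, 1 in a fit of the 6 libraries compared and 1 to 2 when a library was left out. The cause was not tested. With the replicate block, 4 were called in WT Ly6Clo over WT Ly6Chi and 2 in KO Ly6Clo over WT Ly6Chi, where Adgre4 missed the threshold (adjusted p = 0.0502). Same-numbered libraries there correlated at 0.353, 0.142 and 0.0683 and at 0.326, 0.236 and -0.00733. In both comparisons only replicate 1 was best matched by its own number, so pairing by number is not shown for the others. Ddx3y was at 0 CPM in WT Ly6Chi replicate 3, 138.3 in WT Ly6Clo replicate 3 and 132.6 in KO Ly6Clo replicate 3. The libraries numbered 3 were thus not of the same sex, and the 2 WT ones were not from the same mouse, though the block joins them.

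For KO over WT Ly6Clo, leaving out a library gave log2 fold changes of -0.04 to 0.15 for Adgre1, which turned without KO replicate 1 (-0.03) or 2 (-0.02) or WT replicate 1 (-0.02) or 3 (-0.04). Pglyrp1 ranged from -0.33 to 0.1 and turned without KO replicate 2 (0.1) or 3 (0.02) or WT replicate 3 (0.01). Gngt2 ranged from -0.57 to 0.01 and turned without KO replicate 2 (0.01). All 6 markers kept their direction in both comparisons with WT Ly6Chi under every alternative.

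Over all genes tested, 13 were called for KO over WT Ly6Clo, against 54 without a filter, 27 with 1 CPM in 3 libraries, 277 by DESeq2, 0 in the fit of 6 libraries and 2 to 21 without a library. For WT Ly6Clo over WT Ly6Chi the count was 643, against 1968 by DESeq2 and 239 to 847 without a library. For KO Ly6Clo over WT Ly6Chi it was 829, against 1950 by DESeq2, 553 in the fit of 6 libraries and 379 to 818 without a library. The lowest level of a marker in any library was 54.6 CPM (Pglyrp1 in WT Ly6Chi replicate 1), where a depth floor of 3 counts is at most 0.0623 CPM.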
